A study of Rattus norvegicus with 4 samples.

Results

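The cholesterol synthesis and sterol regulation genes are 31 genes named by function: enzymes of the mevalonate and sterol pathways, the SREBP control genes, and genes of sterol transport, efflux and LXR control. They were found by symbol and gene identifier, taking probe sets annotated to exactly 1 gene and the brightest probe set of each gene, and 28 of the 31 had a value among 17245 named genes. The only row naming Srebf1 also names Pemt, so Srebf1 was not used, and Hmgcs1 and Mvk were not analysed here. The study profiled total RNA of primary cortical neurons from Sprague Dawley rat embryos (E18) on 4 arrays, collected 5 days after infection with pLL3.7 lentivirus. The virus of 2 arrays expressed a control shRNA, with the genotype given as wild type, and that of the other 2 expressed PHF6shRNA-2, with the genotype given as PHF6 knockdown. PHF6 is an X-linked nuclear protein with PHD-type zinc fingers. All 4 samples were infected, and a single shRNA was used against PHF6, so loss of PHF6 and other effects of that shRNA cannot be told apart.

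Cholesterol is made from acetyl-CoA. The mevalonate steps give isopentenyl units, which are joined into farnesyl pyrophosphate, and farnesyl pyrophosphate is turned into squalene, lanosterol and finally cholesterol. When sterols in the endoplasmic reticulum are low, SCAP escorts SREBP to the Golgi for cleavage, and the released factor switches on the synthesis genes together with NF-Y, which binds CCAAT boxes. INSIG proteins hold SCAP back when sterols are plentiful, and the LXR receptors respond to oxysterols by switching on efflux transporters. Brain cholesterol is made within the brain, by glia and by neurons, since lipoproteins of the blood do not cross into it.

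Each difference is the log2 intensity with PHF6 shRNA minus that with control shRNA, from limma fitted over all named genes. As a background level, 1273 genes of olfactory and vomeronasal receptors were taken, and their 95th percentile on an array lay between 34.7 and 43.7 intensity units. The arrays had median intensities between 40.9 and 41.7. The sample titles speak of biological duplicates without naming separate cultures or animals, so p-values measure only the spread between these arrays, which may be technical. Phf6 lay below background on all 4 arrays, at intensities of 32.8 and 34.3 (control) and 34.4 and 31.3 (PHF6 shRNA), so it does not check the group labels. All 10 neuron markers (Tubb3, Map2 and others) were above background on every array, and markers of other cells were also found, as given below.

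Promoters of the 4 genes with the smallest unadjusted p among the 28 are printed first, as the 250 bases before the gene start from RefSeq (GRCr8), 5′ to 3′ on the gene's strand, with CCAAT on either strand (CCAAT or ATTGG) in capitals. Idi1 lies at chr17:66547525-66547774 (minus strand), Npc2 at chr6:110149246-110149495 (minus), Nr1h2 at chr1:104183864-104184113 (minus) and Scap at chr8:119184188-119184437 (plus).
Idi1: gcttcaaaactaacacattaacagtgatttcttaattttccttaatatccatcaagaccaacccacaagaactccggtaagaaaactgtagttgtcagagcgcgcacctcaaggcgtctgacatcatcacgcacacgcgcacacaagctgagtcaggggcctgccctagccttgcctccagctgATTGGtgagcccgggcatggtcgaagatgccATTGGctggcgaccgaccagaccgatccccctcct
Npc2: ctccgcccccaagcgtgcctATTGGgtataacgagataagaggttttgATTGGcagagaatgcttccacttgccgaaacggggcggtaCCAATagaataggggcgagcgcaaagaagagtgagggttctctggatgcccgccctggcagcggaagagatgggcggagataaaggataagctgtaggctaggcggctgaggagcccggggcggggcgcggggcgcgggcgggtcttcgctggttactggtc
Nr1h2: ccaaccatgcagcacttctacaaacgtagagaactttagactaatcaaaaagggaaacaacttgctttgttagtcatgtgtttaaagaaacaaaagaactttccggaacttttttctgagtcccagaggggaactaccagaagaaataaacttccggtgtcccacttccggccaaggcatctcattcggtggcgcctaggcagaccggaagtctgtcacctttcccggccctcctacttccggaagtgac
Scap: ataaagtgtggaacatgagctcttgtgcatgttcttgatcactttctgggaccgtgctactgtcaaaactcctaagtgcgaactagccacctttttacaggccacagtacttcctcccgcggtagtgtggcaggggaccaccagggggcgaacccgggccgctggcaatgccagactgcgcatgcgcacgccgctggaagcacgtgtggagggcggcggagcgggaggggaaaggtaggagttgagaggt
The windows of Idi1 and Npc2 held 2 and 3 CCAAT matches, and those of Nr1h2 and Scap held none. Of the measured genes with a promoter in the table, most with CCAAT matches had positive differences and most without had negative ones. The exceptions were Fdps (-0.04) and Ggps1 (-0.14), which held 2 and 1, and Acat2 (0.09) and Cyp51 (0.01), which held none. Several of these signs, among the exceptions and the other genes, changed over the alternatives of the closing section. Whether CCAAT and the sign go together was not tested. Of the 28 measured genes 23 had a promoter in the table, and 15 of these (65.2%) held CCAAT, against 34.3% of 27457 promoters of the same length. The GC box GGGCGG, searched on both strands, was in 17 of the 23 (73.9%), against 32.4% of all promoters and 46.4% of those of named genes. These shares describe the letters of 1 listed start per gene and were not tested.

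The letters TCACNCCA, a core of the sterol regulatory element, were in 2 of the 23 windows on either strand (8.70%), against 3.25% of all promoters. The form with 1 more letter, TCACNCCAC, was in none of the 23 and in 0.976% of all. The matches are shown with 20 bases on each side and the element in capitals, for Msmo1 at chr16:29746903-29746950 and Srebf2 at chr7:115543131-115543178, both GRCr8 and plus strand.
Msmo1: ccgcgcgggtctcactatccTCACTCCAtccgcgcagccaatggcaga
Srebf2: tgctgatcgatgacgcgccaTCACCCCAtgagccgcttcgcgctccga
Msmo1, the sterol C4-methyl oxidase, differed by 0.21 ± 0.12 (SE), and Srebf2, which encodes SREBP-2, by 0.07 ± 0.12. Neither passed the adjusted threshold.

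Among the mevalonate and isoprenoid enzymes, Idi1 stood apart from its neighbours in the pathway. Idi1 encodes isopentenyl-diphosphate isomerase, which makes the allyl unit that starts the isoprenoid chain. Its intensity was 193 and 302 with control shRNA and 579 and 571 with PHF6 shRNA. Both PHF6 shRNA arrays were above both control arrays, and the control arrays differed more from each other than the PHF6 shRNA arrays did. In log2 units this was 7.91 ± 0.45 against 9.17 ± 0.01 (SD, n = 2 each), a difference of 1.25 ± 0.21 (SE), or 2.38-fold, with a 95% interval from 0.73 to 1.78. The limma adjusted p was 0.23 and the unadjusted p 0.0014, so Idi1 did not pass the threshold of 0.05. Of the 17245 named genes, 7 had a difference at least this high, Idi1 included. The difference was 0.93 without control duplicate 1 and 1.57 without control duplicate 2.

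The other 5 measured enzymes of this branch lay between -0.14 (Ggps1) and 0.17 (Mvd). Mvd, the decarboxylase just before Idi1, read 262 and 282 with control shRNA and 318 and 293 with PHF6 shRNA. These groups did not overlap, and the difference of 0.17 ± 0.09 had a limma adjusted p of 0.64. Fdps, the farnesyl pyrophosphate synthase just after Idi1, read 591 and 540 against 591 and 511, a difference of -0.04 ± 0.11 with a 95% interval from -0.31 to 0.24. The 95% intervals of Mvd and Fdps ended at 0.40 and 0.24, and that of Idi1 began at 0.73. These intervals are not adjusted for the number of genes. Idi1 was singled out for its large difference, so setting them side by side is not a test. Acat2, the cytosolic thiolase of the first step, differed by 0.09 in its brighter probe set and 0.16 in the dimmer one. Pmvk, phosphomevalonate kinase, differed by -0.05. Ggps1, which makes geranylgeranyl pyrophosphate for protein prenylation, was below background on all 4 arrays, so its value of -0.14 says little.

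Set against the mean log2 signal of the other 16 measured synthesis enzymes of the same array, Idi1 lay at -0.90 and -0.42 with control shRNA and at 0.53 and 0.56 with PHF6 shRNA. The ratio was higher in both PHF6 shRNA arrays, by 1.20 log2 units, a difference that the mean of the other enzymes did not share on these arrays. The ratio restates the Idi1 difference within each array and was not tested, since 2 against 2 arrays cannot give an exact two-sided p below 0.333.

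**Figure D1:**
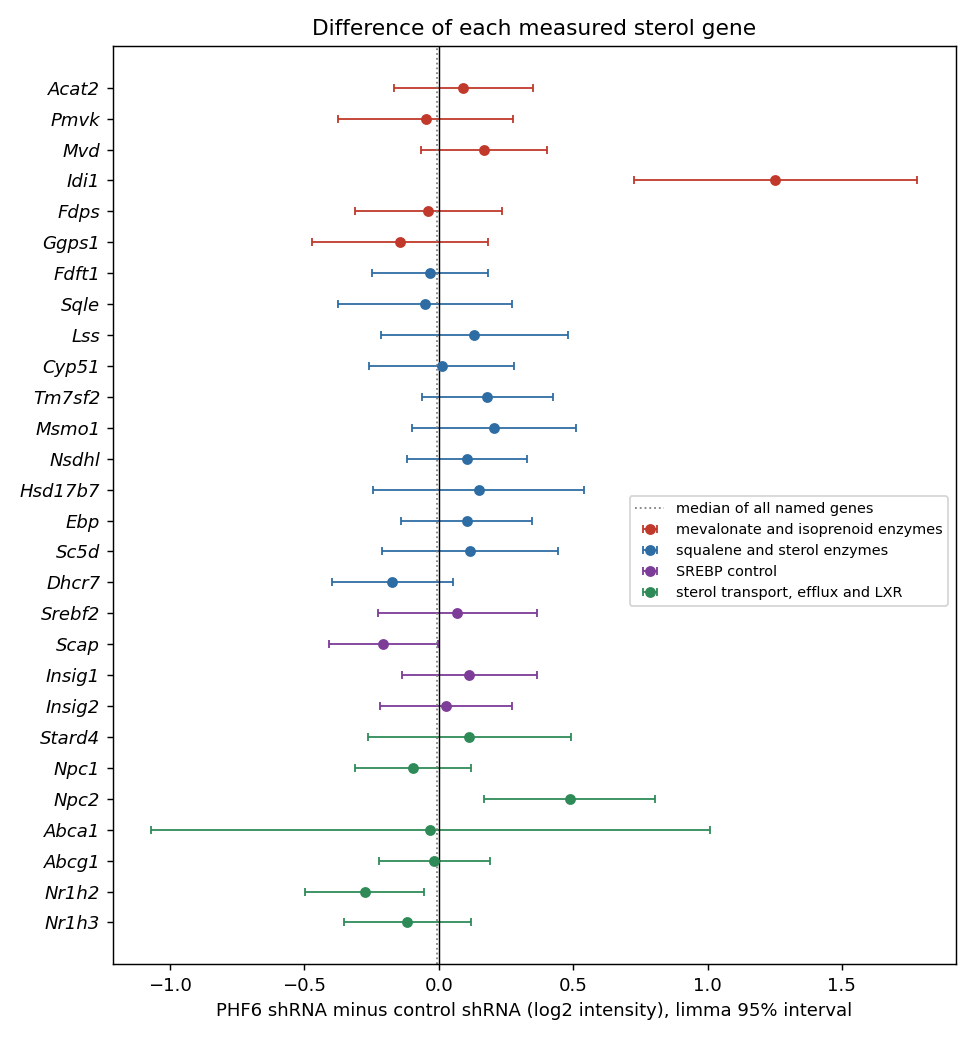
Difference of each of the 28 measured sterol genes in log2 intensity (x axis, PHF6 shRNA minus control shRNA), ordered by pathway step; points are limma estimates, bars their 95% intervals and the dotted line the median of all named genes. Idi1 lies at 1.25 and Npc2 at 0.49, while all other genes lie between -0.28 and 0.21.

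The 11 squalene and sterol enzymes, all measured and all above background, had small differences, from -0.17 (Dhcr7) to 0.21 (Msmo1), with a median of 0.11, or -0.04 without control duplicate 1 and 0.18 without control duplicate 2. Fdft1 and Sqle, which make squalene and open the sterol branch, differed by -0.03 ± 0.09 and -0.05 ± 0.13. Lss, which closes the ring to lanosterol, differed by 0.13 ± 0.14, and Cyp51, which removes a methyl group from lanosterol, by 0.01 ± 0.11. The demethylation genes Msmo1, Nsdhl and Hsd17b7 had values of 0.21, 0.11 and 0.15. The late genes Ebp and Sc5d, an isomerase and a desaturase, stood at 0.10 and 0.12.

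The groups did not overlap for 3 of these 11 genes (27.3%), against 37.8% of all named genes. Tm7sf2, a sterol C14 reductase, read 126 and 143 with control shRNA and 151 and 153 with PHF6 shRNA, a difference of 0.18 ± 0.10. Nsdhl, a sterol dehydrogenase on the X chromosome, read 569 and 622 against 649 and 631. Dhcr7, the last reductase of one route to cholesterol, read 417 and 459 against 390 and 386, a difference of -0.17 ± 0.09. All 3 differences were below 0.20 log2 units in size, and the limma adjusted p of the 16 synthesis enzymes other than Idi1 was at least 0.61.

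Over the 17 measured synthesis enzymes of both branches, 11 had positive and 6 negative differences, with a median of 0.10 against -0.0066 over all named genes, of which 47.7% were positive. In 4 of the 17 the PHF6 shRNA arrays lay above both control arrays and in 1 below, and over all genes this was so in 16% and 21.7%. The median was 0.02 without control duplicate 1, 0.17 without control duplicate 2 and 0.0019 with PHF6 shRNA duplicate 1 left out. The count with positive values was 15 under cyclic loess scaling and 13 under a further quantile normalization. The mean log2 signal of the 16 enzymes other than Idi1 was 8.49 and 8.66 with control shRNA and 8.64 and 8.60 with PHF6 shRNA, so control duplicate 1 was the low array and the other 3 lay close together.

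**Figure D2:**
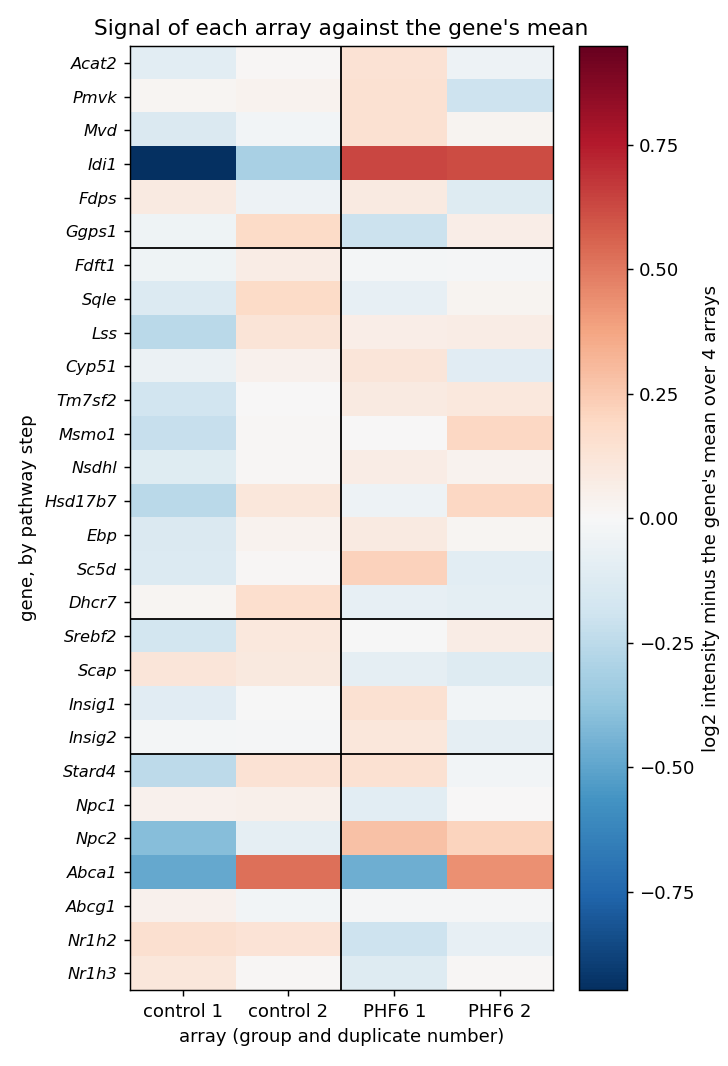
Log2 intensity of each sterol gene on each array minus that gene's mean over the 4 arrays (colour), with genes as rows by pathway step and arrays as columns. Idi1 is high in both PHF6 shRNA arrays, Abca1 is high in both duplicates numbered 2, and control duplicate 1 is the lowest array for most sterol enzymes.

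Of the SREBP control genes, 4 of 5 were measured. Scap, the sterol-sensing escort of SREBP, read 369 and 365 with control shRNA and 323 and 314 with PHF6 shRNA. The groups did not overlap, and each pair of duplicates was close. The difference was -0.21 ± 0.08, with a limma adjusted p of 0.45 and an unadjusted p of 0.047. Of all named genes, 2047 had a difference at least this low, so the value is not rare in these arrays. Srebf2, the main activator of the synthesis genes, read 471 and 571 against 531 and 559, and both PHF6 shRNA arrays lay within the range of the control arrays.

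Insig1, which retains SCAP and is itself an SREBP target, read 676 and 728 with control shRNA and 805 and 716 with PHF6 shRNA, with overlap between the groups. Its difference was 0.11 ± 0.10 in this probe set and 0.26 in the dimmer one. Insig2, its paralogue, read 98.7 and 99.2 against 108 and 94.3, with PHF6 shRNA values on both sides of the control values, and differed by 0.03 ± 0.10. None of the 4 SREBP control genes passed the threshold.

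Of the genes of sterol transport, efflux and LXR control, Npc2 had the largest difference. Npc2 encodes the soluble lysosomal protein that hands cholesterol to the membrane protein NPC1 for export. Its intensity was 166 and 208 with control shRNA and 266 and 255 with PHF6 shRNA, so both PHF6 shRNA arrays were higher. The difference was 0.49 ± 0.13, or 1.40-fold, with a limma adjusted p of 0.30 and an unadjusted p of 0.010. Of the 17245 named genes, 191 had a difference at least this high. Npc1, its partner, read 164 and 165 against 148 and 160, lower in both PHF6 shRNA arrays, with a difference of -0.10 ± 0.09. The log2 ratio of Npc2 to Npc1 was 0.02 and 0.33 with control shRNA and 0.84 and 0.67 with PHF6 shRNA. Its exact permutation p was likewise 0.333, the lowest possible, and could not decide.

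The LXR genes had negative differences. Nr1h2, which encodes LXR-beta, read 6.64 and 6.62 log2 units with control shRNA and 6.30 and 6.42 with PHF6 shRNA, without overlap. The difference was -0.28 ± 0.09, with a limma adjusted p of 0.37 and an unadjusted p of 0.023, and 1191 named genes had one at least this low. Nr1h3, which encodes LXR-alpha, was below background on all 4 arrays, at 32.1 and 30.1 against 27.3 and 30.0. The efflux transporter gene Abcg1, an LXR target, read 115 and 110 against 111 and 111 and differed by -0.02 ± 0.08. Stard4, a carrier of cholesterol between membranes, differed by 0.11 ± 0.15.

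Abca1, the other LXR-driven efflux transporter, followed the duplicate number and not the shRNA. It read 42.0 with control shRNA and 42.8 with PHF6 shRNA in duplicates 1, and 84.4 and 79.3 in duplicates 2. Background was 43.7 (control) and 42.6 (PHF6 shRNA) in duplicates 1, and 34.7 and 36.3 in duplicates 2. The Abca1 values of duplicates 1 thus lay at about background, and the differences rest partly on them. The group difference was -0.03 ± 0.41, while duplicate 2 exceeded duplicate 1 by 0.95 log2 units on average. The next largest such differences were 0.31 (Idi1 and Hsd17b7). Duplicate 2 was also higher for 9 of 10 astrocyte markers (median 0.46) and for 8 of 8 markers of cycling progenitors (median 0.59). It was higher for 6 of 9 oligodendrocyte lineage markers (median 0.09), 5 of 9 fibroblast or endothelial markers (median 0.02) and 0 of 8 microglia markers (median -0.11), and for 8364 of all 17245 named genes. The glutamate transporter gene Slc1a3 read 254 and 278 in duplicates 1 and 622 and 665 in duplicates 2. Their part in the Abca1 value was not tested, and in bulk RNA more cells of a type and more RNA per cell cannot be told apart.

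**Figure D3:**
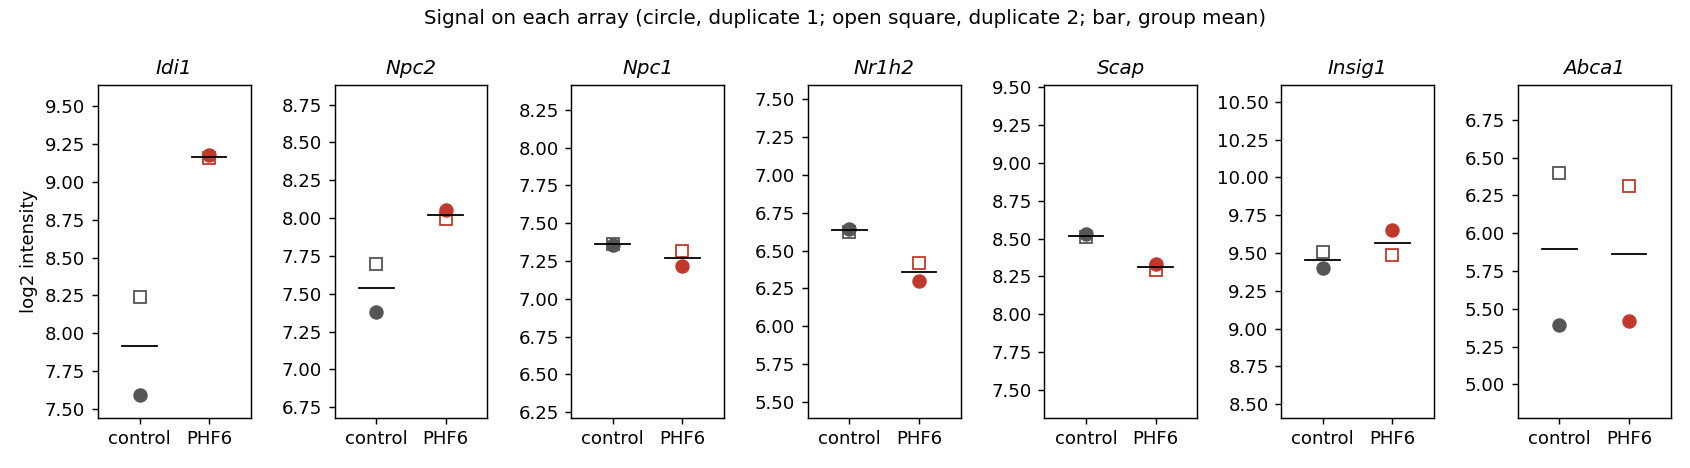
Log2 intensity (y axes, each spanning the same number of log2 units) on the 2 control and 2 PHF6 shRNA arrays for 7 sterol genes; filled circles are duplicates numbered 1, open squares those numbered 2, and bars group means. Idi1 and Npc2 are higher and Nr1h2 and Scap lower in both PHF6 shRNA arrays, and Abca1 separates by duplicate number.

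In all, 16 of the 28 measured sterol genes had positive and 12 negative differences (13 to 19 positive when an array was left out). The positive count was 19 after a further quantile normalization and 21 after cyclic loess. None passed an adjusted p of 0.05 in limma without a covariate, as for all named genes (0% called, smallest adjusted p = 0.23). With a block for the duplicate number Idi1 and Npc2 did pass, as given in the closing section, but the labels do not state that pairing. At an unadjusted limma p under 0.05, Idi1 and Npc2 were higher and Scap and Nr1h2 lower, which is 2 of 28 in each direction. At that p, 565 of all named genes were higher (3.28%) and 1297 lower (7.52%). Scap depended on the scaling, with a limma p of 0.16 after a further quantile normalization, 0.15 after cyclic loess and 0.038 after median centring. With filters on dim genes it was 0.075 and 0.085. Nr1h2 stayed under 0.05 in these settings. When the variance prior followed the signal level, the limma p was 0.052 for Nr1h2 and 0.088 for Scap. The groups did not overlap in 5 genes toward higher and 5 toward lower signal, 35.7% of the 28 against 37.8% of all named genes. As a group these genes were therefore separated between the shRNAs about as often as any genes of the array.

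**Figure D4:**
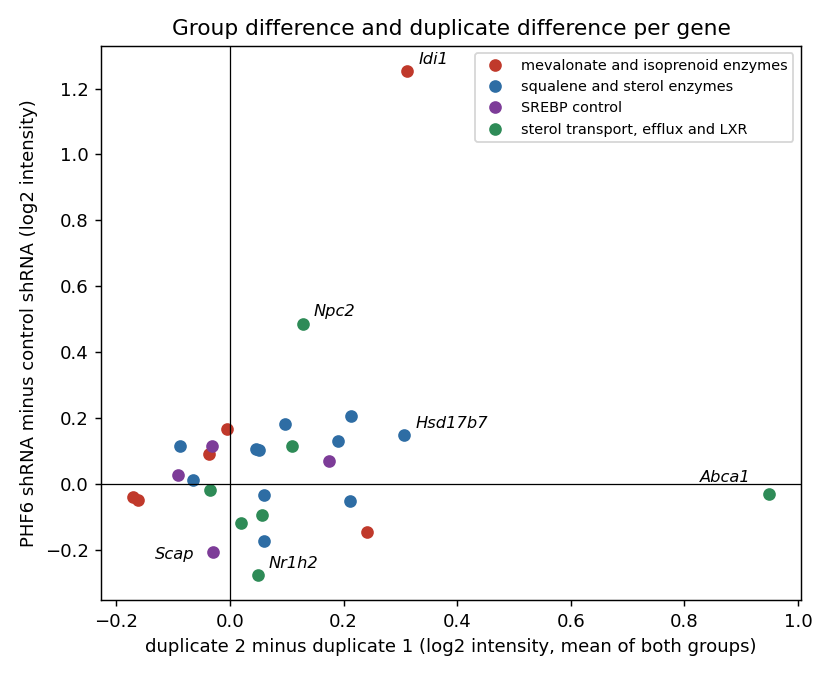
For each of the 28 sterol genes, the mean difference between duplicates 2 and 1 (x axis, log2 intensity) against the difference between PHF6 shRNA and control shRNA (y axis, log2 intensity), coloured by pathway step. Idi1 and Npc2 lie high on the y axis, and Abca1 lies far to the right, at 0.95, with a group difference near 0.

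Genes around the pathway gave mixed values. Among 14 other genes of synthesis and SREBP processing, 10 had negative differences, with a median of -0.10 (-0.17 without control duplicate 1 and -0.04 without control duplicate 2), and those with the smallest p were Trib1 (-0.35), Cyb5r3 (0.31), Tmem97 (-0.15) and Mbtps1 (-0.16), the site-1 protease that cleaves SREBP. Lbr, which like Tm7sf2 encodes a sterol C14 reductase, stood at -0.20 against 0.18 for Tm7sf2. Of 11 genes that use isoprenoids 10 had negative differences, with a median of -0.14, among them Fntb (-0.26), the beta subunit of protein farnesyltransferase, Dhdds (-0.29), which makes dolichol precursors, Coq2 (-0.21) of ubiquinone synthesis and Rabggta (-0.14) of Rab prenylation. This count was 8 of 11 after a further quantile normalization and 7 of 11 after cyclic loess, and 6 to 9 of 11 when an array was left out. None of these 25 genes passed the threshold.

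Lipoprotein genes went both ways. Of 10 measured, 4 had positive and 6 negative differences, with a median of -0.02, which turned to 0.02 and 0.04 under a further quantile normalization and cyclic loess. Lipa, the lysosomal lipase that frees cholesterol from its esters, read 99.6 and 111 with control shRNA and 82.2 and 79.6 with PHF6 shRNA, a difference of -0.38 ± 0.09. It acts in the same compartment as Npc2 and had the opposite sign. Scarb1, a lipoprotein receptor, differed by 0.26, Vldlr by -0.16 and Lrp1 by -0.22. Of 21 other genes of sterol transport and esters, Osbpl8, an oxysterol-binding protein, differed by 0.46 ± 0.12, and the next by p, Gramd1b, Osbpl5 and Gramd1a, stood at -0.16, -0.15 and -0.14.

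Of 8 oxysterol genes only 4 were above background on at least 2 arrays. Cyp46a1, the neuronal enzyme that makes 24-hydroxycholesterol and so drains cholesterol from the brain, read 240 and 247 with control shRNA and 299 and 284 with PHF6 shRNA. The groups did not overlap, and the difference was 0.26 ± 0.08 with a limma adjusted p of 0.38. Hsd3b7 stood at 0.21, and the next by p, Cyp11a1 and Cyp39a1, were below background on every array.

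The fatty acid genes that SREBP factors also drive had the widest range of these lists. Of 17 measured, 9 had positive and 8 negative differences, with a median of 0.03, or -0.10 without control duplicate 1 and 0.16 without control duplicate 2. Elovl6, which lengthens fatty acids, read 354 and 458 with control shRNA and 639 and 863 with PHF6 shRNA, a difference of 0.88 ± 0.19. Acss2, which makes acetyl-CoA from acetate, read 145 and 163 against 271 and 205, a difference of 0.61 ± 0.15. Acly, which makes acetyl-CoA from citrate, read 393 and 496 against 268 and 332, a difference of -0.56 ± 0.16. The pair of cytosolic acetyl-CoA sources thus had opposite signs, each without overlap between the groups. Pnpla3, a lipase of lipid droplets, differed by 0.53 ± 0.10. None of these genes passed the threshold (limma adjusted p of at least 0.24).

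**Figure D5:**
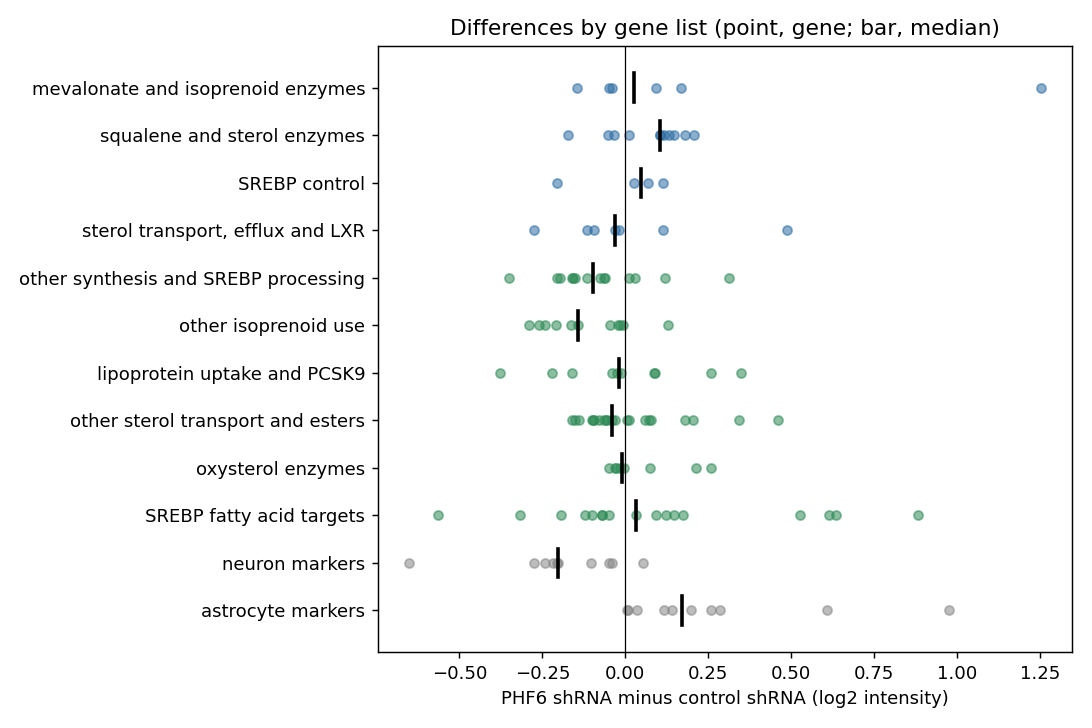
Difference of each gene (points, log2 intensity, PHF6 shRNA minus control shRNA) in the 4 groups of sterol genes (blue), 6 lists of related genes (green) and the neuron and astrocyte markers (grey), with list medians as bars. Idi1 at 1.25 and Npc2 at 0.49 lie outside the range of the other sterol genes, and the fatty acid list spans -0.56 to 0.88.

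Markers of cells that a cortical culture can hold were read from the same fit, and none passed the threshold. Of 10 astrocyte markers 10 had positive differences, with a median of 0.17, led by Slc1a2 at 0.98 ± 0.20 and Aldoc at 0.61 ± 0.18. Under cyclic loess 8 of 10 were positive and after median centring 9. With PHF6 shRNA duplicate 2 left out the median was -0.08 (4 of 10 positive). With PHF6 shRNA duplicate 1 left out it was 0.55 (10 of 10). Without control duplicate 1 it was 0.04 (5 of 10), and without control duplicate 2 it was 0.43 (9 of 10). The summed intensity of the astrocyte list was 864 and 1514 with control shRNA and 1200 and 1845 with PHF6 shRNA, so the groups overlapped. Gfap, Aqp4 and Gja1 were above background on 2 of 4 arrays and Gjb6 on none. The part of astrocyte content in the values of Idi1 and Npc2 was not tested. Of 10 neuron markers 9 had negative differences (8 under cyclic loess and a further quantile normalization), with a median of -0.20 (-0.13 without control duplicate 2), and their sum was 12923 and 13000 with control shRNA and 11466 and 11770 with PHF6 shRNA. The part of neuron content in the lower values of Scap and Nr1h2 was not tested.

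Oligodendrocyte lineage, microglia and fibroblast or endothelial markers had medians of -0.04, -0.01 and 0.06. Their summed signals overlapped between the groups, at 403 and 497 against 382 and 481, 258 and 226 against 252 and 234, and 365 and 348 against 376 and 364. Of these, 3 of 9, 5 of 8 and 6 of 9 genes were above background on no array, among them the defining markers Mog, Aif1 and Cldn5. Others of these lists were above background on all 4 arrays, among them Olig2 and Cnp, Cx3cr1 and C1qb, and Col1a1 and Col1a2. Cx3cr1 was only just above it in duplicates 1, at 45.1 (control) and 42.9 (PHF6 shRNA) against 43.7 and 42.6. Cycling progenitor markers had a median of -0.07, with sums of 490 and 739 against 413 and 816. Leaving out 1 array moved that median from -0.46 (without PHF6 shRNA duplicate 2, with 1 of 8 positive) to 0.33 (PHF6 shRNA duplicate 1 left out, with 8 of 8 positive).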

How the data were processed

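Total RNA of 4 samples was turned into whole-transcript sense target, labelled with biotin and hybridised to Affymetrix arrays, per the labels' protocols. The deposited values are probe set intensities that the authors made with RMA, per the submitters' processing notes, whose version is not given in the sources used here. Their range of 8.57 to 6121 is linear, so values were converted to log2. RMA compresses differences of dim probe sets. Of 29214 rows 18644 carried 1 gene symbol, and 18460 of these were updated through the gene identifier to RefSeq (GRCr8). The brightest probe set stood for each of 17245 genes.

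Groups, taken from the sample titles, were compared by limma (version 3.58.1, R 4.3.3; lmFit, eBayes, 2-sided, no covariate, Benjamini-Hochberg over all named genes). The number of arrays limits the precision. Alternatives were a block for the duplicate number, leaving out each array, 3 scalings, 2 filters on dim genes, 2 priors, the mean of probe sets and all rows.

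The genes, lists and rule for naming were chosen with earlier results of these data known. The rule names all 31 sterol genes, gives each array for the SREBP control genes and for those without overlap and a difference of at least 0.25 log2 units, and names up to 4 genes with the smallest p of each related list; other values per array and the cell markers named were added after their values were seen.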

Additional observations from a re-analysis of the deposited data

How the results depend on the processing

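Over the alternatives that could be run for each gene (14, or 13 for Ggps1 and Nr1h3, which the filter on background removes), 14 of the 28 sterol genes kept the sign of their difference, among them Idi1 (0.93 to 1.57), Npc2 (0.33 to 0.65), Nr1h2 (-0.34 to -0.22) and Scap (-0.23 to -0.13), and the other 14 changed sign at least once. With the duplicate number as a replicate block, 909 genes (5.27% of all) passed an adjusted p of 0.05 in limma, and 2 sterol genes did, Idi1 (adjusted p = 0.0074) and Npc2 (0.040); over all alternatives their adjusted p reached 0.54 and 0.57. The labels do not say whether these numbers pair arrays, though the descriptions repeat them after "exp", and same-numbered arrays deviated together from their group means with a correlation of 0.57 across all genes, which are not independent replicates. Leaving out each array gave 0 to 90 genes past the threshold, and no sterol gene. The median of the synthesis enzymes ran from 0.0019 to 0.17 and that of the SREBP control and transport genes from -0.070 to 0.030, against -0.02 with all arrays. Under cyclic loess these medians were 0.15 and 0.035. The cause of these shifts was not tested. Of genes at an unadjusted p under 0.05, 69.7% were lower, and 58.0% and 53.5% after a further quantile normalization and cyclic loess. Ggps1 and Nr1h3, below background, have no reliable differences.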
